A study of Mus musculus with 12 samples.

Results

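The genes described here carry the insulin and IGF signal into the cell: the receptors *Insr* and *Igf1r*, the receptor substrates *Irs1* and *Irs2*, the PI3K subunit gene *Pik3r1*, the kinases *Akt1* and *Akt2*, the transcription factors *Foxo1* and *Foxo3*, and *Prkaa2*, which encodes a catalytic subunit of AMPK. They were chosen by name, and each was read with the H3K27ac regions that overlap its gene body extended by 5 kb on each side (GENCODE M21, GRCm38). All 10 genes held regions in both genotypes. Their windows held 96 of the 53754 regions listed for control cardiomyocytes (CMs) and 78 of the 45521 listed for RIP140-null CMs.

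RIP140, encoded by *Nrip1*, is a transcriptional corepressor, and the experiment asked how its absence from CMs alters H3K27ac, a histone mark of active promoters and enhancers. Hearts of mice 10 to 12 weeks old were digested on a Langendorff apparatus, and a slow spin raised the share of CMs. CUT&RUN, in which an antibody directs a nuclease to chromatin, was run on 200000 cells per experiment, with 3 H3K27ac and 3 IgG replicates per genotype. RIP140-null (KO) CMs came from Nrip1 f/f mice with Cre driven by Nkx2.5, and control CMs from Nrip1 f/f littermates without Cre. Both groups therefore carried the floxed allele, and no group carried Cre alone.

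Insulin and IGFs bind receptor tyrosine kinases that phosphorylate the IRS proteins. These recruit PI3K, whose lipid product brings AKT to the membrane, and active AKT phosphorylates FOXO factors and keeps them out of the nucleus. In the heart this pathway sets physiological growth and glucose uptake, FOXO factors drive genes of protein breakdown and stress resistance, and AMPK responds to a shortage of ATP.

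Each genotype was represented by 1 list of region positions, made from regions found in at least 2 of 3 replicates. The lists give no signal and no value per replicate, so a covered length is 1 value per genotype with no replicate error, and the depth behind it is unknown. A region was called KO-only or control-only if the other genotype had no region sharing even 1 bp with it, and shared otherwise. Covered length is the number of bp of a window inside regions. A ratio is that length in RIP140-null over control CMs on the log2 scale, and a gene was called higher or lower when the lengths were at least 1.5-fold apart. Longer genes hold more regions, and a region in a window may act on a neighboring gene.

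The last exon of *Nrip1* (chromosome 16, 76287400 to 76295015), which the floxed allele removes, was covered over 2904 bp in control and 0 bp in RIP140-null CMs. The promoters of all 7 CM marker genes, among them *Myh6*, *Tnnt2* and *Ttn*, were covered in both lists. None of 5 fibroblast and none of 4 macrophage or leukocyte marker promoters was covered in either list, and *Dcn*, *Tcf21*, *Csf1r* and *Ptprc* had no cover at all. Windows of the fibroblast genes held 1560 bp in control and 834 bp in RIP140-null CMs, those of the macrophage and leukocyte genes 1173 bp and 4128 bp, all at *Cd68*. Endothelial genes were marked in both genotypes: promoters of *Tek*, *Kdr* and *Tie1* were covered in both lists, and those of *Pecam1* and *Cdh5* in neither. The summed covered length of these 5 genes was 95760 bp in control and 102309 bp in RIP140-null CMs, but the genes went both ways. Cover was longer in RIP140-null CMs at *Pecam1* (33438 bp in control and 41698 bp in RIP140-null CMs) and *Kdr* (16989 bp and 21047 bp). It was shorter at *Tek* (37756 bp and 36176 bp), *Cdh5* (5079 bp and 1743 bp) and *Tie1* (2498 bp and 1645 bp). *Tek* was the most covered in control and *Pecam1* in RIP140-null CMs. Of 4 smooth muscle and pericyte genes, *Myh11* had a covered promoter in both lists and *Acta2* in the control list alone, with 12815 bp and 9053 bp in all. *Insr*, *Igf1r*, *Foxo1* and *Foxo3* are also used by endothelial cells, and the part of such cells in the values below was not tested.

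The stretches below were chosen because they lie in the widest intronic genotype-only region of *Foxo1*, *Insr*, *Igf1r*, *Akt1* and *Prkaa2*, or at the *Akt1* promoter, where the region of RIP140-null CMs was widest relative to control. Where the region held a match to the FOXO letters GTAAACA or the ERR letters TCAAGGTCA on either strand, the stretch is centered on it and capitals mark it. Otherwise the stretch is the center of the region and has no capitals. The *Akt1* promoter stretch was placed by the annotated promoter, so the match in it, also in capitals, is off center. Another *Akt1* promoter stretch (112674227 to 112674526) held no match to these letters and is not printed. Sequences are from GRCm38.p6, 5′ to 3′, on the strand given, and the promoter is that of RefSeq.
Foxo1 intron 1, control-only region, FOXO letters, chr3:52297689-52297838, minus strand: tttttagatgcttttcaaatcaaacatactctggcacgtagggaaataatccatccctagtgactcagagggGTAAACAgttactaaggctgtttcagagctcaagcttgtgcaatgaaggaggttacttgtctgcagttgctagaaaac
Foxo1 intron 1, same control-only region, ERR letters, chr3:52299886-52300035, minus strand: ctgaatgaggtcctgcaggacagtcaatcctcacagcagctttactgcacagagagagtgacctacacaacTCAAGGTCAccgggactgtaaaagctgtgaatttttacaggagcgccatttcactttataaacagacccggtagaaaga
Insr intron 5, control-only region, ERR letters, chr8:3200073-3200222, plus strand: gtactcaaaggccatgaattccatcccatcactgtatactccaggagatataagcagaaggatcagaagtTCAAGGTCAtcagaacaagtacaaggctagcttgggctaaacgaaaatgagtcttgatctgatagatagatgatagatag
Igf1r intron 2, control-only region, center, chr7:68030432-68030581, plus strand: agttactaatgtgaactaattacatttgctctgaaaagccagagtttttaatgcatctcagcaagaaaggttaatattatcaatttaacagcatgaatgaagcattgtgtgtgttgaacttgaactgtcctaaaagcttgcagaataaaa
Akt1 intron 3, KO-only region, center, chr12:112661807-112661956, plus strand: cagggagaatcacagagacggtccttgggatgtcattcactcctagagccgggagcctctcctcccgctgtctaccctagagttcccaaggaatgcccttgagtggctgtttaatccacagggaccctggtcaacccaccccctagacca
Prkaa2 intron 2, KO-only region, center, chr4:105071483-105071632, plus strand: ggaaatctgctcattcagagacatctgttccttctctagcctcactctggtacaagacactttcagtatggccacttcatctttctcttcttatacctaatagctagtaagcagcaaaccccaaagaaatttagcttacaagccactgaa
Akt1 promoter, chr12:112674835-112675134, minus strand, capitals reading GTAAACA on the plus strand: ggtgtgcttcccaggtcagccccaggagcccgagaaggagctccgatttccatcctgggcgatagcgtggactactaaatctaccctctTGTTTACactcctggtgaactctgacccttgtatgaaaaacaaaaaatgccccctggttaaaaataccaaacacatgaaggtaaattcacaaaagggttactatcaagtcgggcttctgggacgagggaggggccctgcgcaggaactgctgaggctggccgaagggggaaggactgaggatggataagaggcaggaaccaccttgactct

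Over the 10 windows together, which span 1038 kb, regions covered 420 kb in control and 436 kb in RIP140-null CMs, a log2 ratio of 0.05. Of the control cover, 82.3% was also covered in RIP140-null CMs, against 74.1% over the whole lists, and of the RIP140-null cover 79.3% was shared, against 72.7%. The signaling genes were thus covered to almost the same length in both genotypes, and largely at the same bases. The whole lists also hold regions outside genes, unlike the backgrounds of protein-coding genes used below. The part of region width in the higher shares was not tested. The median log2 ratio of the 10 genes was 0.12, beside 0.08 for the 12989 protein-coding genes with cover in both lists. Single genes ranged from -0.70 at *Foxo1* to 1.32 at *Akt1*, and the other 8 lay between -0.12 and 0.44.

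*Akt1* was the 1 gene of 10 called higher in RIP140-null CMs, and *Foxo1* the 1 gene of 10 called lower. Among 14443 protein-coding genes with cover in either list, 19.8% were called higher and 12.7% lower. Short covered lengths give large ratios more easily, so the shares were also read among the 6879 genes with at least 5000 bp in 1 list, a limit added after seeing the data: 14.7% were higher and 6.93% lower. The counts of 1 in 10 (10%, 95% Wilson interval 1.79% to 40.4%, counting error only) do not stand apart from either background. The ratio of *Akt1* exceeded that of 97.5% of the genes with 5000 bp or more, and that of *Foxo1* exceeded 4.91% of them.

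**Figure D1:**
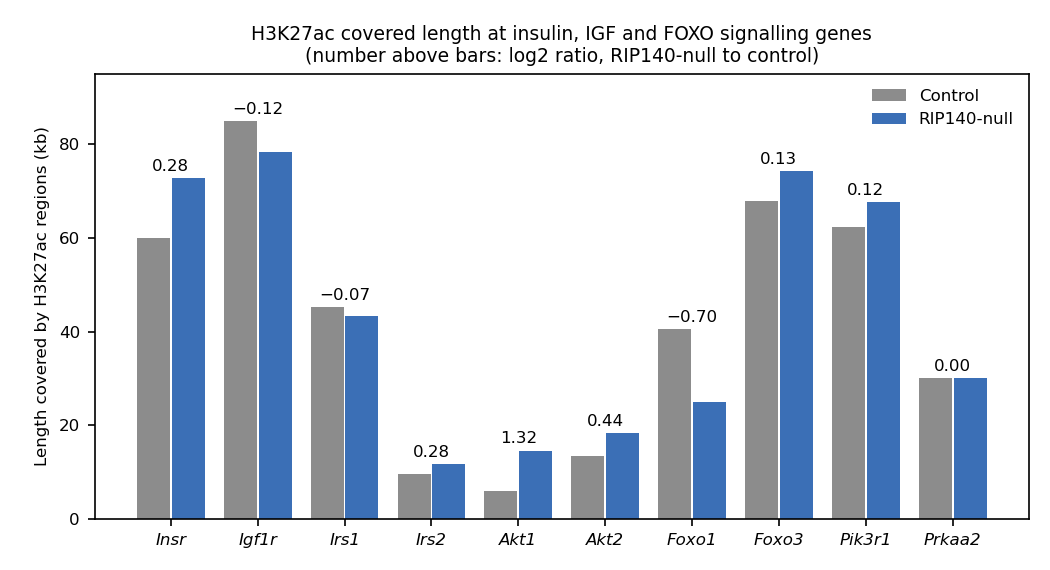
Length covered by H3K27ac regions (kb) in the window of each gene in control (grey) and RIP140-null CMs (blue), 1 value per genotype, with the log2 ratio above each pair. *Akt1* (5.85 kb and 14.6 kb) and *Foxo1* (40.4 kb and 24.9 kb) are the genes at least 1.5-fold apart.

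**Figure D2:**
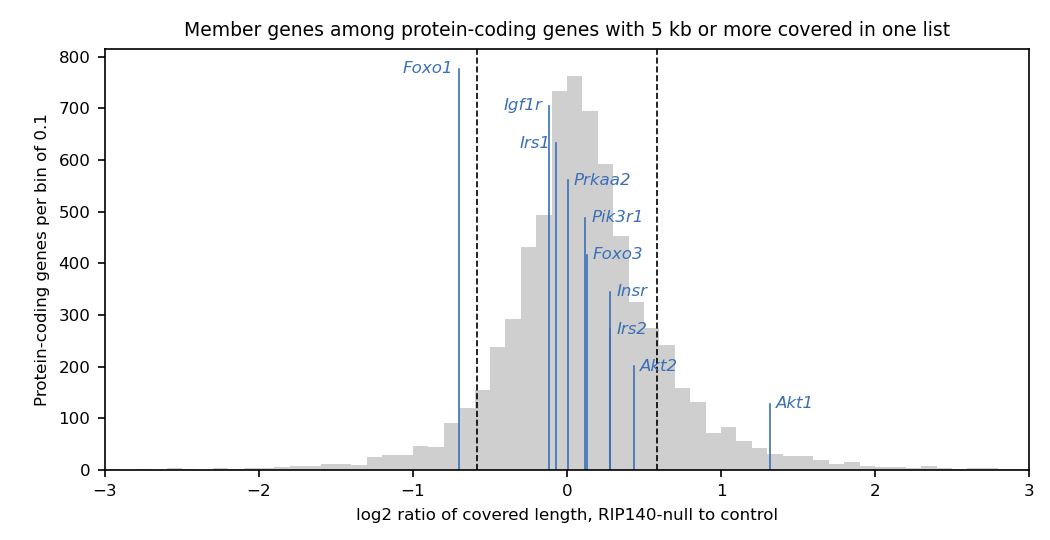
Histogram of the log2 ratio of covered length for protein-coding genes with at least 5000 bp covered in 1 list and cover in both, with the 10 genes as blue lines whose heights serve only to separate the names. Dashed lines mark 1.5-fold; *Foxo1* (-0.70) and *Akt1* (1.32) lie outside them.

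Of the 78 RIP140-null regions at these genes, 10 were KO-only (12.8%, interval 7.12% to 22.0%), against 20.7% of RIP140-null regions in the windows of all protein-coding genes. Of the 96 control regions, 17 were control-only (17.7%, interval 11.4% to 26.5%), against 27% in those windows. Both shares were below the background, which lay inside the interval for KO-only regions and just above it for control-only regions. Regions cluster by gene, so both intervals are too narrow, and the control-only share cannot be set apart from the background. Both counts depended strongly on how sharing was defined, and the control-only count also on how regions were assigned, with 7 in place of 17 when each region went to the nearest gene start. The background was not recomputed under these alternatives. The genotype-only regions were unevenly spread. *Igf1r* and *Foxo1* held 6 control-only regions each, 12 of the 17. These were 6 of 29 control regions at *Igf1r*, a share below the 27% of the background, and 6 of 12 at *Foxo1*, a share above it. The other 8 genes held 5 among 55 control regions (9.09%). This share was lowered by leaving out *Igf1r* and *Foxo1*, which were picked because they held the most. *Prkaa2* held the most KO-only regions, with 3, and *Irs1*, *Irs2* and *Pik3r1* held no genotype-only region of either kind.

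**Figure D3:**
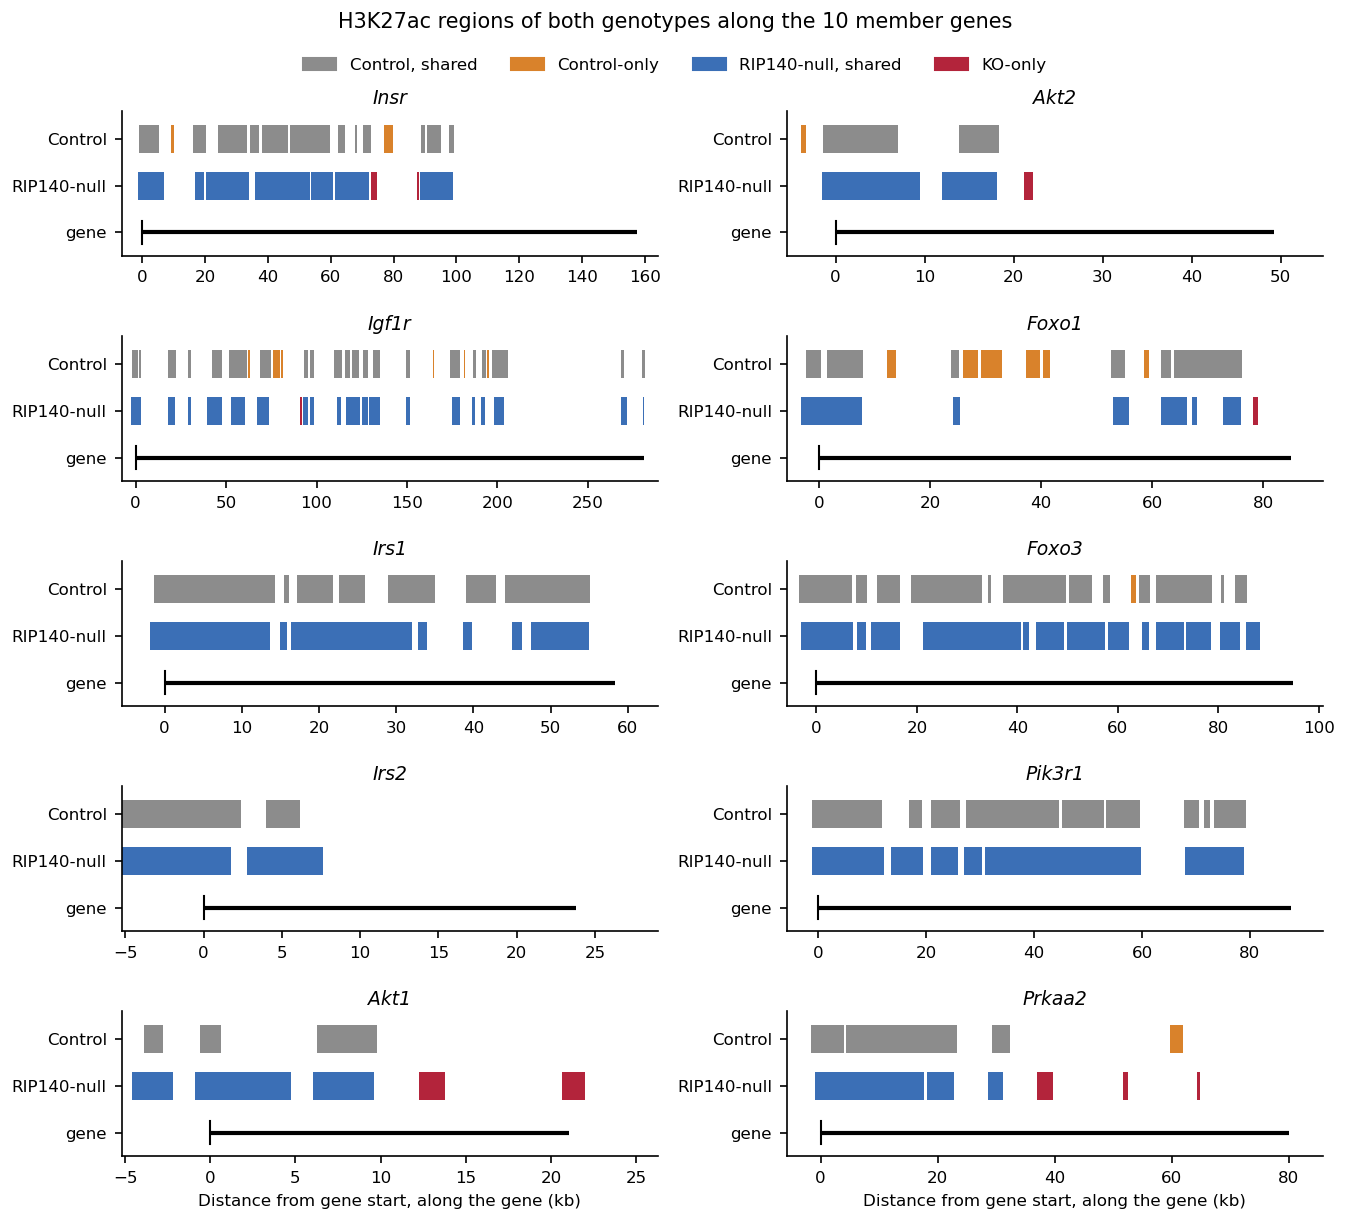
Positions of H3K27ac regions along each gene, as distance from the gene start (kb, vertical tick) in the direction of transcription, with the gene as a black line. Control-only regions (orange) are most numerous in *Foxo1* and *Igf1r*, with 6 each, and KO-only regions (red) in *Prkaa2*, with 3.

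*Insr* encodes the insulin receptor (ENSMUSG00000005534, chromosome 8, 3122061 to 3279617, minus strand). Its regions covered 59.9 kb in control and 72.7 kb in RIP140-null CMs, a log2 ratio of 0.28. In both genotypes they stopped at a similar distance from the gene start (99301 bp and 99036 bp), which left the 3′ part of this 157557 bp gene without cover. Within that span, 14 control regions faced 9 RIP140-null regions, and 4 of the latter overlapped 2 or more control regions. The widest, 17250 bp from 3226353 to 3243602, joined 3 control regions. *Insr* had 2 control-only regions, in introns 1 and 5, and 2 KO-only regions, in introns 3 and 8. The KO-only region in intron 3 (3205000 to 3206787) lay 139 bp from a control region and that in intron 8 lay 910 bp from one. The control-only region in intron 5 (3199881 to 3202664), which holds the ERR letters printed above, was 2784 bp wide and had 3 subpeaks.

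*Igf1r*, the receptor for IGFs (ENSMUSG00000005533, chromosome 7, 67952827 to 68233668, plus strand), had the longest cover of the 10 genes in either genotype, 85.1 kb in control and 78.4 kb in RIP140-null CMs, a log2 ratio of -0.12. It is also the longest of them, at 280842 bp, and its regions filled 29.3% of its window in control CMs, against 35.8% at *Insr*. All 6 control-only regions and its KO-only region were centered in intron 2. The control-only regions together spanned 8356 bp, and 4 of them were under 1000 bp wide. The widest, 3908 bp from 68028553 to 68032460, lay 1744 bp from the nearest RIP140-null region. The control-only region from 68147266 to 68148165 reached the promoter of an annotated internal transcript start. The promoter of the gene itself was fully covered in both lists.

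The IRS proteins dock PI3K to the activated receptors. *Irs1* (ENSMUSG00000055980, chromosome 1, 82233101 to 82291416, minus strand) was covered over 45.3 kb in control and 43.2 kb in RIP140-null CMs, a log2 ratio of -0.07, and all 7 regions of each genotype were shared. Regions filled 66.4% and 63.3% of its window, a higher share than in 98.5% of protein-coding genes with cover in control and 97.5% in RIP140-null CMs. The medians over those genes were 11.4% and 12.4%. *Irs1* differed between genotypes in how its cover was divided: the RIP140-null region from 82259341 to 82275064 (15724 bp) overlapped 3 control regions, and the control region from 82236294 to 82247359 (11066 bp) overlapped 2 RIP140-null regions. *Irs2* (ENSMUSG00000038894, chromosome 8, 10984681 to 11008458, minus strand) had 2 regions in each genotype, at its start and in intron 1. These covered 9555 bp and 11605 bp, a log2 ratio of 0.28. The start regions, 7723 bp and 7362 bp wide, reached beyond the window, and only the part within it was counted. The intronic region measured 2164 bp in control and 4844 bp in RIP140-null CMs, and the wider region contained the narrower.

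*Pik3r1* encodes the regulatory subunit alpha of PI3K (ENSMUSG00000041417, chromosome 13, 101680563 to 101768217, minus strand). It was the member whose cover matched best between genotypes: 87.4% of all bases covered in either list were covered in both. Covered length was 62.3 kb in control and 67.6 kb in RIP140-null CMs, a log2 ratio of 0.12, and no region was genotype-only. It also held the widest region among the 10 genes. In RIP140-null CMs 1 region ran 28971 bp, from 101708388 to 101737358, and 110 of the 45521 RIP140-null regions were wider. It overlapped 3 control regions, the widest of 17207 bp, with gaps of under 1000 bp between them.

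*Akt1* (ENSMUSG00000001729, chromosome 12, 112653821 to 112674884, minus strand) encodes the kinase isoform tied to growth. Its window was covered over 5847 bp in control and 14567 bp in RIP140-null CMs, 2.49-fold more and a log2 ratio of 1.32. Of the bases covered in either list, 38.6% were covered in both, the lowest share of the 10 genes. Of the 8878 bp covered in RIP140-null CMs alone, the longest stretch, 4119 bp, lay next to the promoter. There the control region, 1201 bp from 112674258 to 112675458, fell within a RIP140-null region of 5632 bp, from 112670139 to 112675770, which reached 4745 bp into the gene. The cover of the promoter itself (1000 bp before the gene start and 100 bp after it) was 675 bp and 987 bp. The FOXO letters of the *Akt1* promoter printed above, at 112675039 to 112675045, were covered in both genotypes. Both KO-only regions of the gene lay farther along it. That from 112661104 to 112662659 (1556 bp) was in intron 3, 2426 bp from the nearest control region. The other, from 112652871 to 112654246 (1376 bp, 3 subpeaks), spanned the end of the last exon, 7057 bp from the nearest control region. The region upstream of the gene was also wider in RIP140-null CMs (112677059 to 112679479), 2421 bp against 1100 bp. In RIP140-null CMs it overlapped *Zbtb42*, which, like *Siva1*, lies partly in the window. Without the bodies of other protein-coding genes, an alternative added after seeing the data, the log2 ratio was 1.25.

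*Akt2* (ENSMUSG00000004056, chromosome 7, 27591552 to 27640826, plus strand), the isoform known for insulin-stimulated glucose uptake, had a log2 ratio of 0.44, with 13487 bp covered in control and 18251 bp in RIP140-null CMs. It did not reach 1.5-fold. Each of its 2 shared regions was wider in RIP140-null CMs: the region over the start measured 8368 bp in control and 10985 bp in RIP140-null CMs, and that in intron 1 measured 4602 bp and 6167 bp. A KO-only region of 1099 bp lay in intron 2 (27612685 to 27613783) and a control-only region of 517 bp lay upstream. Both AKT genes thus had the higher covered length in RIP140-null CMs, and 1 of them passed the threshold.

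*Foxo1* (ENSMUSG00000044167, chromosome 3, 52268336 to 52353221, plus strand) encodes a forkhead factor that AKT inhibits. Its window was covered over 40.4 kb in control and 24.9 kb in RIP140-null CMs, a log2 ratio of -0.70. The control list held 12 regions and the RIP140-null list 7. All 6 control-only regions lay in intron 1, which is 75616 bp long, and together spanned 12938 bp of the 19571 bp covered in control CMs alone. From 25295 to 52977 bp after the gene start, RIP140-null CMs had no region, where control CMs had 4 control-only regions (52294287 to 52296911, 52297472 to 52301225, 52305553 to 52308078 and 52308596 to 52309960). Of these, the pair farthest from the gene start lay 11921 bp and 11352 bp from the nearest RIP140-null region. The widest, 3754 bp from 52297472 to 52301225, was the only 1 of the 6 with more than 2 subpeaks (3), and it holds both *Foxo1* sequences printed above. Near the end of intron 1, a control region of 12129 bp (52332299 to 52344427) overlapped 3 RIP140-null regions that covered 6613 bp of it. The start of the gene went the other way: a RIP140-null region of 10853 bp (52265153 to 52276005) covered the promoter and joined 2 control regions of 2807 bp and 6596 bp. The gene's KO-only region (951 bp, 52346414 to 52347364) lay in intron 2. The lower cover of *Foxo1* therefore lay mostly within intron 1, and its promoter was covered over all 1101 bp in both genotypes.

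*Foxo3* (ENSMUSG00000048756, chromosome 10, 42181841 to 42276755, minus strand), a forkhead factor with overlapping targets, was covered over 67.9 kb in control and 74.2 kb in RIP140-null CMs, a log2 ratio of 0.13. Its window was among the most densely covered, at 64.7% and 70.7%, above 98.4% of protein-coding genes with cover in each genotype. Each list held 13 regions, and the single genotype-only region was control-only (42213089 to 42214193), 274 bp from a RIP140-null region. The widest RIP140-null region, 19517 bp from 42236086 to 42255602 with 11 subpeaks, overlapped 3 control regions. Across the gene, 3 RIP140-null regions overlapped 2 or more control regions and 4 control regions overlapped 2 or more RIP140-null regions. The FOXO genes thus differed from each other: *Foxo1* was called lower, and *Foxo3* lay near the median of all genes.

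*Prkaa2* (ENSMUSG00000028518, chromosome 4, 105029874 to 105109890, minus strand) encodes the catalytic subunit of AMPK that prevails in heart. Its covered length was 30016 bp in control and 30086 bp in RIP140-null CMs, a log2 ratio of 0.00, yet 5107 bp were covered in control alone and 5177 bp in RIP140-null CMs alone. Near its start both genotypes held 1 very wide region, of 19024 bp in control and 18616 bp in RIP140-null CMs, with 283 and 418 wider regions in the respective lists. Farther along the gene the lists parted: RIP140-null CMs had 3 KO-only regions, in introns 2 and 6, and control CMs had a control-only region of 2325 bp in intron 5 (105047910 to 105050234). The widest KO-only region, 2677 bp with 3 subpeaks (105070219 to 105072895), lay 4701 bp from the nearest control region. Most of the cover of *Prkaa2*, 24909 bp, was common to both genotypes, and the remainder was of similar length in each but differed in position.

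All 10 genes had a promoter covered in both lists, beside 64.7% of protein-coding genes with cover, and 8 of 10 were covered over all 1101 bp in both. The exceptions were *Akt1*, given above, and *Prkaa2*, at 1101 bp and 1056 bp. Of the 27 genotype-only regions, 25 were centered in introns and 1 touched the promoter of any annotated start of its gene. Most shared regions of these genes were centered in introns too, so this place does not set genotype-only regions apart. The genotype-only regions tended to have few subpeaks. At these genes, 22 of 27 genotype-only regions (81.5%) had 2 subpeaks, the lowest number in either list, against 63 of 147 shared regions (42.9%). In the windows of all protein-coding genes, 2 subpeaks were found in 93.9% of control-only and 86.4% of KO-only regions, against 56.1% and 50.1% of shared control and RIP140-null regions. Genotype-only regions were also narrower there, with medians of 1047 bp (control-only) and 1310.5 bp (KO-only) against 2450 bp and 2779 bp for shared regions, so few subpeaks may reflect width. The lists do not show whether a genotype-only region was also called in 1 replicate of the other genotype.

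Regions of each genotype could span several regions of the other. At these genes, 17 of 78 RIP140-null regions (21.8%, interval 14.1% to 32.2%) overlapped 2 or more control regions, against 10.4% in the windows of all protein-coding genes. Of the 96 control regions, 11 (11.5%, interval 6.52% to 19.4%) overlapped 2 or more RIP140-null regions, against 5.57%. Both shares were above the background, but regions cluster by gene, with 8 of the 17 at *Insr* and *Igf1r* and 4 of the 11 at *Foxo3*, so the intervals are too narrow. Wide regions can overlap more regions of the other list, and the part of width in these shares was not tested. The share was larger for RIP140-null regions, as it was in the windows of all protein-coding genes, but the intervals of the shares overlapped and the difference was not tested. The RIP140-null list also has fewer and wider regions overall (45521 with a median of 2291 bp, against 53754 with a median of 1846 bp).

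The FOXO letters GTAAACA, the core that forkhead factors share, were looked for in either orientation within 200 bp at the middle of each region. They were present in 5 of the 174 regions of both lists at these genes (2.87%, interval 1.23% to 6.55%) and in 3.11% of all 99275 regions. A locus shared between the lists counts in both, so the pooled regions are not independent and intervals on the 174 are too narrow. By genotype, the counts were 1 of 96 control and 4 of 78 RIP140-null regions. The ERR letters were present in 1 of the 174 regions (0.575%), against 0.666% of all regions, and the MEF2 consensus, read as palindromic, in 0 of 174, against 1.07%. None of the 27 genotype-only regions held any of these in its central 200 bp. Over the full width of the regions, the FOXO letters occurred at 87 positions in the 10 windows, of which 72 were covered in both lists, 4 in control alone and 11 in RIP140-null CMs alone. Of all bases covered in these windows, 346 kb were covered in both lists, 74.3 kb in control alone and 90.1 kb in RIP140-null CMs alone, and the division of FOXO positions over all regions was not computed. *Igf1r* held 24 of these positions, *Foxo3* 14 and *Insr* 13. At *Foxo1* itself, 5 positions were covered in both lists, 2 in control alone and 1 in RIP140-null CMs alone. The ERR letters occurred at 13 positions, 8 of them covered in both lists, 2 in control alone and 3 in RIP140-null CMs alone. In the wider central 1000 bp, the MEF2 consensus was present in 1 of the 174 regions (0.575%, interval 0.102% to 3.18%) against 4.44% of all regions. There the longer letters GTAAACAA were present in 9.38% of control regions at these genes (interval 5.01% to 16.9%) and 3.85% of RIP140-null regions (interval 1.32% to 10.7%), against 4.27% and 4.32% of all. Pooled over the lists, these letters were present in 6.90% of regions (interval 3.99% to 11.7%) against 4.29%, and the ERR letters in 1.72% (interval 0.588% to 4.95%) against 3.26%. In the central 200 bp the shares for FOXO and ERR were close to those of all regions when the lists were pooled, while the FOXO shares by genotype, on few matches, were 1.04% in control and 5.13% in RIP140-null regions. A match of letters is no evidence of binding.

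Beyond the 10 genes, 83 other genes of the pathway were read the same way, grouped by role. Cover in at least 1 list was found at 77 of them, with 13 higher (16.9%) and 4 lower (5.19%) in RIP140-null CMs, and the median log2 ratio of the 74 with cover in both was 0.11. The share of higher genes lay between the backgrounds of 19.8% for all genes and 14.7% for those with at least 5000 bp, and the share of lower genes was below both (12.7% and 6.93%). The 6 genes without cover in either list were *Igf2*, *Igfbp3*, *Sh2b2*, *Pik3r2*, *Rps6kb2* and *Fbxo32*. Each role holds few genes, and no role was tested against the background. Among genes of AMPK subunits, kinases and substrates, 4 of 10 were higher (40%) and 1 lower (10%), beside 19.8% and 12.7% of all genes. The higher ones were *Camkk2*, a kinase that activates AMPK (4933 bp in control and 10325 bp in RIP140-null CMs, log2 ratio 1.07), *Ulk1*, which starts autophagy (0.86), and the regulatory subunit genes *Prkag2* (0.83) and *Prkag1* (0.80). The lower one was the remaining gene of that subunit, *Prkag3* (2783 bp and 1728 bp, -0.69), which had less than 5000 bp in either list. *Prkag2* had 7 KO-only and 3 control-only regions, and its cover was 19363 bp and 34499 bp.

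Of the mTOR genes, 2 of 13 with cover were higher (15.4%) and 1 was lower (7.69%), beside 19.8% and 12.7% of all genes. *Mtor*, the kinase of both complexes, was covered over 5032 bp and 8137 bp (0.69), with 2 KO-only and 0 control-only regions, and *Rictor*, a subunit of the complex that phosphorylates AKT, over 10519 bp and 16045 bp (0.61). *Rheb*, the GTPase that activates mTOR, was covered over 11226 bp in control and 3770 bp in RIP140-null CMs, a log2 ratio of -1.57 and the lowest of the 74. It had 3 control-only and 0 KO-only regions, while its promoter was covered in both lists (1101 bp and 986 bp). *Rheb* and *Prkag2* are neighbors on chromosome 5, 20.1 kb apart, with ratios of opposite sign.

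Among the receptor adaptors and inhibitors, 2 of 10 with cover were higher (20%) and 0 lower, beside 19.8% and 12.7% of all genes. The higher were *Ptpn1*, a phosphatase that removes phosphate from the insulin receptor (0.72), and *Grb2*, an adaptor toward the Ras pathway (24700 bp and 37815 bp, 0.61). *Grb10*, an adaptor that inhibits both receptors, had 4 control-only and 0 KO-only regions and a ratio of -0.39, and *Sos1*, a Ras activator, had 2 and 0. None of the 6 genes of PI3K and phosphoinositide phosphatases with cover was called. Of the 9 genes of AKT and its direct regulators, 1 was higher (11.1%) and 0 lower. This was *Phlpp2*, a phosphatase of AKT, listed at 0 bp in control and 4168 bp in RIP140-null CMs, in 2 KO-only regions. Of the 7 ligands and binding proteins with cover, 2 were higher (28.6%) and 1 was lower (14.3%). The higher call at *Igfbp6* (0 bp and 709 bp) and the lower call at *Igfbp2* (992 bp and 0 bp) each rested on 1 short region. *Igfbp5* was higher (3177 bp and 5446 bp, 0.78), and *Igf2r*, which clears IGF2 from the surface, had 2 control-only and 0 KO-only regions with a ratio of 0.05. In glucose handling, 1 of 5 genes with cover was higher (20%) and 0 lower. The higher was *Gys1*, muscle glycogen synthase (0.69).

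The FOXO factors and target genes had a median log2 ratio of 0.02 and ranged from -1.11 to 0.72. Of 17 with cover, 1 was higher and 1 lower (5.88% each), beside 19.8% and 12.7% of all genes. The lower was *Map1lc3b*, an autophagosome component (5681 bp and 2640 bp, -1.11), and the higher *Trim63*, a ubiquitin ligase of muscle (2457 bp and 4057 bp, 0.72). *Sesn1*, a FOXO target that restrains mTOR, had 3 control-only and 0 KO-only regions with a ratio of -0.12. Over the whole pathway list, 3 of the 77 genes had 2 or more KO-only and no control-only regions, beside 3.23% of protein-coding genes with cover. The reverse was found for 5, beside 6.02%. These counts too lay near the background.

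**Figure D4:**
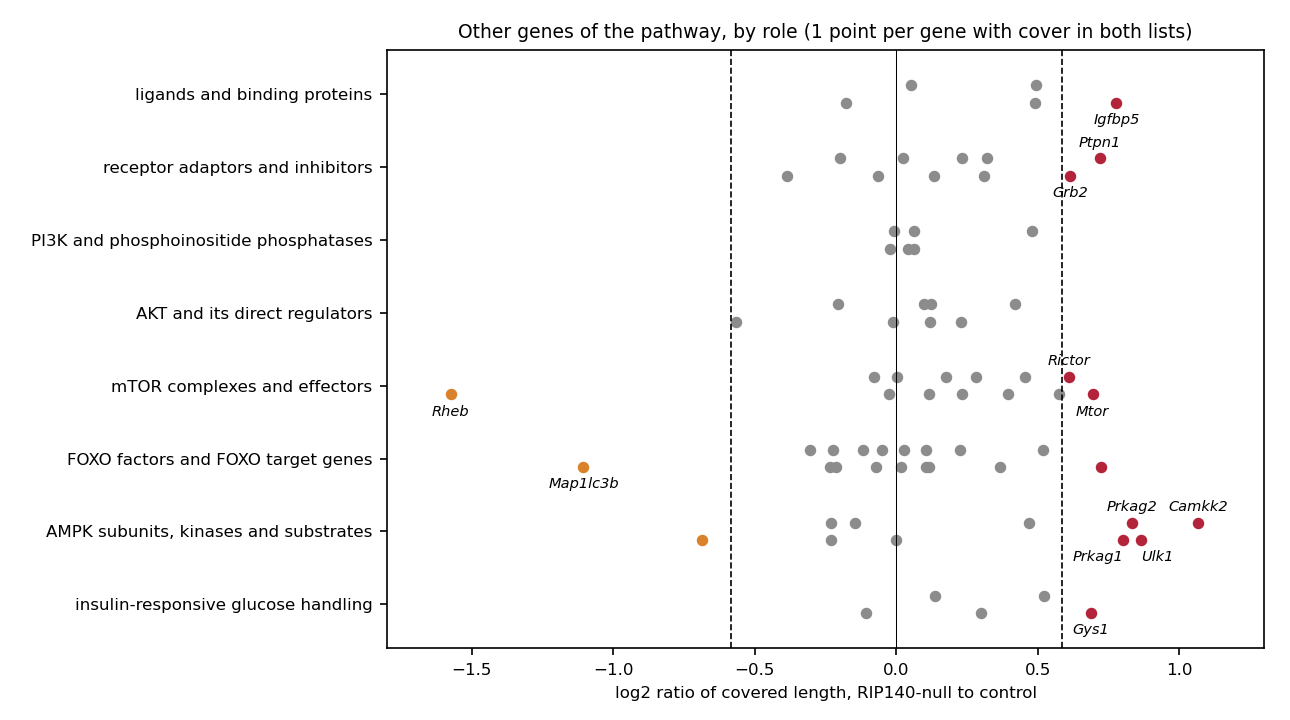
Log2 ratio of covered length (RIP140-null to control CMs) for the 74 other pathway genes with cover in both lists, by role, 1 point per gene. Dashed lines mark 1.5-fold, genes past it are red (higher) or orange (lower), and names are given where at least 5000 bp were covered in 1 list. *Rheb* (-1.57) and *Camkk2* (1.07) lie at the ends.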

How the data were processed

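Alignment by the authors used Bowtie2 2.4.2 and GRCm38, followed by removal of duplicates (SAMtools). H3K27ac regions were called by them with HOMER 4.11.1 in each replicate, with IgG as background, and merged if found in at least 2 of 3 replicates. The deposited positions of these regions, in bp, were used here, on chromosomes 1 to 19, X and Y (21 control and 14 RIP140-null regions left out). Regions were assigned to GENCODE M21 gene bodies extended by 5 kb. Regions overlapping by 1 bp were shared, promoters were the 1000 bp before and 100 bp after the gene start, and intervals are 95% Wilson intervals. Intron numbers follow the transcript with the longest coding sequence. Other pathway genes are named if they reached 1.5-fold with 5000 bp in 1 list, or held 2 or more genotype-only regions of 1 kind and 0 of the other. *Prkag3*, *Trim63*, *Igfbp2* and *Igfbp6*, called at shorter lengths, are named in addition. The genes and lists were chosen with earlier results of these data known. The scripts recovered all regions and motifs planted in made-up lists. Python 3.11.15, scipy 1.17.1 and matplotlib 3.10.9 were used.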

Additional observations from a re-analysis of the deposited data

How the results depend on the processing

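Of 62 alternatives to the summary values, 50 were labeled the same, 12 moved and 0 reversed. The label allows some change: it was given to counts of 7 to 14 KO-only and 13 to 21 control-only regions. All 60 alternatives at single genes stayed within 1.5-fold of the main ratio. *Akt1* and *Foxo1* stayed past the 1.5-fold call in each, with log2 ratios from 1.17 to 1.32 and from -0.81 to -0.70. The number of KO-only regions (10) was 19 when sharing required 50% of a region to be covered, 36 with 50% required in both directions, 6 for regions of at least 1000 bp and 2 with 3 or more subpeaks. The number of control-only regions (17) was 54 with 50% required in both directions, 11 for regions of at least 1000 bp, 7 by nearest gene start and 3 with 3 or more subpeaks. At 2-fold, 0 of the 10 genes were lower and 3 of the other pathway genes higher. FOXO letters were found in 14.9% of regions within the central 1000 bp (14.5% of all regions) and in 0.575% as GTAAACAA (0.913% of all), which contains the shorter letters. The alternatives on subpeaks, neighboring gene bodies and genes of at least 5000 bp were chosen after seeing the data. No paired analysis was possible because each genotype had 1 merged list, and no replicate could be left out for the same reason. The lists carry no signal, so equal cover can hide unequal H3K27ac, and depth was not known. Cells other than CMs and Cre itself were not separated from the genotype, and the cause of any difference was not tested.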
